A study of Mus musculus with 4 samples.

Results

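The genes described here encode the secreted Wnt ligands, the receptors that bind them, the inhibitors and enhancers of that binding, and some of the intracellular factors and target genes. They were taken by name from the array's annotation: every symbol of the Wnt, Fzd, Sfrp, Dkk and Rspo families, and 20 further listed genes from Lrp5 and Lef1 to Ror2. Of the listed genes, Tcf7 and Kremen2 were matched to no probe set, and the opposite-strand transcript Fzd10os, which shares only a family prefix, was not counted. This left 59 genes with 118 probe sets, out of 18193 genes with a single symbol.

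The samples were 4 cultures of MC3T3-E1, a mouse preosteoblast line that the labels trace to the calvaria of newborn C57BL/6 mice, each measured once on an Affymetrix Mouse Genome 430 2.0 array. All cultures grew in MEM α supplemented with 10% fetal bovine serum, for 3 or 6 days. Normal medium held nothing further, while osteogenic medium also contained 150 µM of a stable ascorbate (ascorbic acid 2-phosphate), which collagen synthesis needs, and 10 mM of the phosphate source beta-glycerophosphate. The 4 groups were thus normal medium at day 3, osteogenic medium at day 3, normal medium at day 6 and osteogenic medium at day 6, all from 1 cell line and with 1 array each. There were no replicates, so a difference between 2 arrays has no replicate check, and "higher" and "lower" in a count mean by 2-fold or more.

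Wnt proteins carry a lipid that they need to bind Frizzled receptors. In the canonical branch a Frizzled acts with the co-receptor Lrp5 or Lrp6 to spare beta-catenin from destruction, and beta-catenin then joins the DNA-binding factors Lef1 and Tcf7 to raise transcription of target genes, several of which feed back to dampen the signal. In bone the pathway is known for driving osteoblast formation, and its secreted inhibitors restrain bone gain.

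Values are probe set signals on a linear scale, shifted to a common 75th percentile. Signals are not comparable between probe sets, so each gene is compared only with itself. A signal at or below 57.8, the pooled median of all probe sets, was treated as being at a floor. A gene is given by the probe set with its highest mean signal and was taken as measured where at least 1 of the 2 arrays compared was above the floor. A difference with 1 array at the floor is a bound, written "at least" or "from the floor". The probe error of a log2 medium difference, estimated from how far paired probe sets of a gene disagreed, was 0.258 for day 3 and 0.241 for day 6. This error is 1 standard deviation, estimated robustly, so a difference just past it can come from disagreement between probe sets alone. It does not hold the spread between cultures. In bulk RNA, fewer cells of a type and less RNA per cell cannot be told apart.

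The osteoblast label held against its markers. All 7 matched osteoblast markers were above the floor on at least 1 array. Alpl, the alkaline phosphatase of mineralising cells, was 2.94-fold higher in osteogenic medium at day 3 and 3.25-fold higher at day 6, while Sp7 differed by 1.61-fold and 1.30-fold and Col1a1 by -0.21 and 0.03 on the log2 scale. Of the markers of other cells, 1 of 7 leukocyte, 1 of 6 endothelial and 1 of 6 adipocyte genes were above the floor on any array. Among the matched markers, 6 of 7 smooth muscle, 5 of 9 chondrocyte, 5 of 6 osteocyte, 3 of 6 skeletal muscle and 3 of 5 keratinocyte genes were above it. The summed signal of the chondrocyte markers was 4535 and 4056 in normal medium and 6558 and 8577 in osteogenic medium at days 3 and 6. That of the osteocyte markers ran from 5727 to 6546 on the other arrays and was 11703 in osteogenic medium at day 6, and the smooth muscle sum was 62623, 67168, 52121 and 49435 over normal and osteogenic medium at day 3 and then at day 6. Such sums weigh bright probe sets most. Of the chondrocyte markers, Col2a1 (1.12 and 2.28 on the log2 scale) and Cnmd (1.36 and 1.33) were higher in osteogenic medium at both days. Sox9 differed by 0.06 and 0.22. Sox6 (-0.59 and -0.63) and Sox5 (-0.79 and -0.32, both bounds from the floor) were lower, and the rest were below the floor on every array. Of the osteocyte markers, Dmp1 had 204 in normal and 1229 in osteogenic medium at day 3, and 739 and 5799 at day 6. Pdpn, which made up most of the day 3 sums, had 5448 and 4890 at day 3 and 5658 and 5317 at day 6. Phex, also counted as an osteoblast marker, gave log2 bounds of 1.56 and 3.00 at days 3 and 6. Mepe (0.51) and Fgf23 (-0.22) gave bounds at day 6 only, and Sost was below the floor on every array. The part of these markers in the Wnt values was not tested. The osteogenic day 6 array also differed in its control signal for the 5′ end of 18S ribosomal RNA, which was 746 against 5202 to 9162 on the other arrays. Every day 6 medium difference rests on that array, and its part in them was not tested. The ratio of the 3′ to the 5′ control of Gapdh, a measure of RNA integrity, lay between 0.756 and 0.769 on all 4 arrays.

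Of the 59 genes, 35 were above the floor on every array, 11 on some arrays, and 13 on none. The 13 were 8 of the 19 ligands (Wnt1, Wnt2, Wnt2b, Wnt3, Wnt8a, Wnt8b, Wnt9b and Wnt16), Fzd3, Rspo4, Sfrp5, Dkk1 and Dkk4. For Dkk1, the best-known Dickkopf inhibitor, signals were 34.9 and 28.0 in normal medium and 12.4 and 1.55 in osteogenic medium, all below the floor, so no difference is given.

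At day 3, 3 of 43 measured genes were higher in osteogenic medium (Wnt7b, Notum and Nkd2), against 1.99% of all genes measured, and 1 was lower (Sfrp1), against 1.59%. Together these were 9.30% of the measured Wnt genes, against 3.57% of all genes. At day 6, 5 of 45 were higher (Rspo2, Lef1, Sfrp4, Notum and Lgr6), against 4.18% of all genes, and 3 were lower (Dkk2, Sfrp2 and Rspo3), against 2.78%. Together these were 17.8%, against 6.96% of all genes. The median log2 difference of the measured Wnt genes was -0.051 at day 3 and 0.090 at day 6, beside 0.0092 and 0.013 for all genes. Of 42 genes measured at both days, 29 (69.0%) had the same sign at both, beside 62.7% of all genes. Only Notum passed 2-fold at both days.

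**Figure D1:**
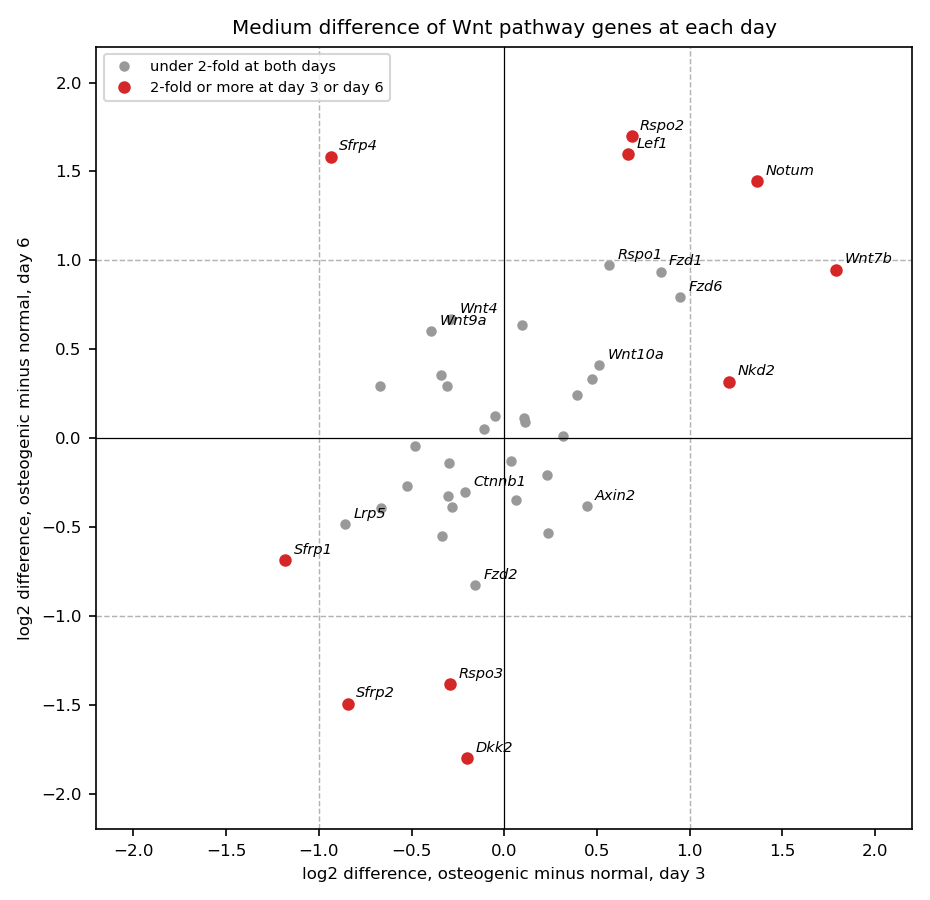
Log2 difference between osteogenic and normal medium at day 3 (x axis) and day 6 (y axis) for the 42 Wnt pathway genes measured at both days, 1 point per gene, with dashed lines at 2-fold. Notum lies past 2-fold on both axes, Sfrp4 is below zero at day 3 and above it at day 6, and most other genes lie within 2-fold of zero.

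Promoters are shown for 4 genes whose signals stood past 2-fold in 1 or other direction, Lef1 and Nkd2 on the higher side and Dkk2 and Sfrp2 on the lower, because the pathway ends at DNA-bound TCF/LEF factors. The sequences are RefSeq's, of build GRCm38.p6, and run 5′ to 3′ along the gene's strand from 250 bases before the start to 50 after it. They lie at chr3:131110047-131110346 on the plus strand (Lef1, the most upstream of 4 listed starts), chr13:73847582-73847881 on the minus strand (Nkd2), chr3:132085042-132085341 on the plus strand (Dkk2) and chr3:83766071-83766370 on the plus strand (Sfrp2). Capitals mark the GC box GGGCGG and the TATA box TATAAA.
Lef1: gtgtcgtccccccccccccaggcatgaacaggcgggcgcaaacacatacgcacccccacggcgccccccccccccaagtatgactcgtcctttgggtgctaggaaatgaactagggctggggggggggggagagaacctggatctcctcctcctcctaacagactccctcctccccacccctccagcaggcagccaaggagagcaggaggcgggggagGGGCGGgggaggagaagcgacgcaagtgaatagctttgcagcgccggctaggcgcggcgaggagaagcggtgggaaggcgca
Nkd2: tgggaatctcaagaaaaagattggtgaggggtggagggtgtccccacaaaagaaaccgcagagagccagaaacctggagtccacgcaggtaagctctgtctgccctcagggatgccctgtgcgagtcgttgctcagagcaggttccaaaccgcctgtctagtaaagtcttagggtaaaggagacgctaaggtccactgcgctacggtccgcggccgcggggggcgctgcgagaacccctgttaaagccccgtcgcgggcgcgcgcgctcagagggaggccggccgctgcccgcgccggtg
Dkk2: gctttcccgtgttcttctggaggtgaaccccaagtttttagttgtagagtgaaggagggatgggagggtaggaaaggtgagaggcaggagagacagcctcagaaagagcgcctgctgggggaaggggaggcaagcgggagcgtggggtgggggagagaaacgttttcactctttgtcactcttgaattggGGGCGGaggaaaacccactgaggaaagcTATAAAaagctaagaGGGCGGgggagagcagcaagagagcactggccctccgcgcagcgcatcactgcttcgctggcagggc
Sfrp2: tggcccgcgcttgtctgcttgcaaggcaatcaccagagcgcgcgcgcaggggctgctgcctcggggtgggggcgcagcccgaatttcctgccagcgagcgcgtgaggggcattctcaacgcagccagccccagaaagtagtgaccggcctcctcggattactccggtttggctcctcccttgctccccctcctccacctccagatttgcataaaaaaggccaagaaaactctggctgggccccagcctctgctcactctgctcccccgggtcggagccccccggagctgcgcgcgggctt
The TCF/LEF motif, searched as CTTTGAT and CTTTGAA on both strands, is in none of these 4 windows. Of the 59 genes, 38 were matched to a promoter, with 46 starts in all, and 3 of the 46 windows (6.52%) held a TCF/LEF match, those of Dkk1, Wnt11 and Wnt5b, beside 8.65% of all 32851 promoters in the table. The GC box, searched on both strands, was in 32 of the 46 (69.6%), beside 35.7% of all promoters. The TATA box, searched on the gene's strand, was in 5 (10.9%), beside 8.32%, and Dkk2 had 1 TATA box between 2 GC boxes. These letters describe the windows and are no evidence of binding.

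Among the ligands, Wnt7b alone of the 10 measured at day 3 passed 2-fold. Wnt7b, a ligand known to promote bone formation, had signals of 80.3 in normal and 277.7 in osteogenic medium at day 3, and of 79.998 and 154.3 at day 6. Both osteogenic arrays were thus above both normal arrays, by 3.46-fold at day 3 and 1.93-fold at day 6. Its other probe set was below the floor at day 3 and at least 1.19 higher on the log2 scale at day 6.

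Wnt10a and Wnt6, which are known to favour osteoblast over adipocyte fate, were less than 2-fold from their normal medium levels in every probe set. Wnt10a signals were 1440 and 2052 in normal and osteogenic medium at day 3 and 1489 and 1982 at day 6, log2 differences of 0.51 and 0.41. Wnt6 signals were 1238 and 1543 at day 3 and 1265 and 1276 at day 6. Wnt10a was higher in osteogenic medium on both days by more than the probe error. Wnt6 exceeded that error at day 3 (0.32) and not at day 6 (0.01), but its second probe set gave 0.48 and 0.71.

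Wnt5a, a ligand of the branches that do not use beta-catenin, was lower in osteogenic medium at both days, by 0.52 and 0.27 on the log2 scale, and its 2 other measured probe sets gave -0.42 and -0.69 at day 3 and -0.46 and -0.27 at day 6. Wnt9a and Wnt4 lay below normal medium at day 3 (-0.40 and -0.29) and above it at day 6 (0.60 and 0.67). The other measured ligands, Wnt3a, Wnt5b, Wnt7a, Wnt10b and Wnt11, had log2 differences from -0.67 to 0.39. Of these Wnt3a, Wnt7a, Wnt10b and Wnt11 were below the floor on at least 1 array, and the lowest value, that of Wnt10b at day 3, is a bound.

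**Figure D2:**
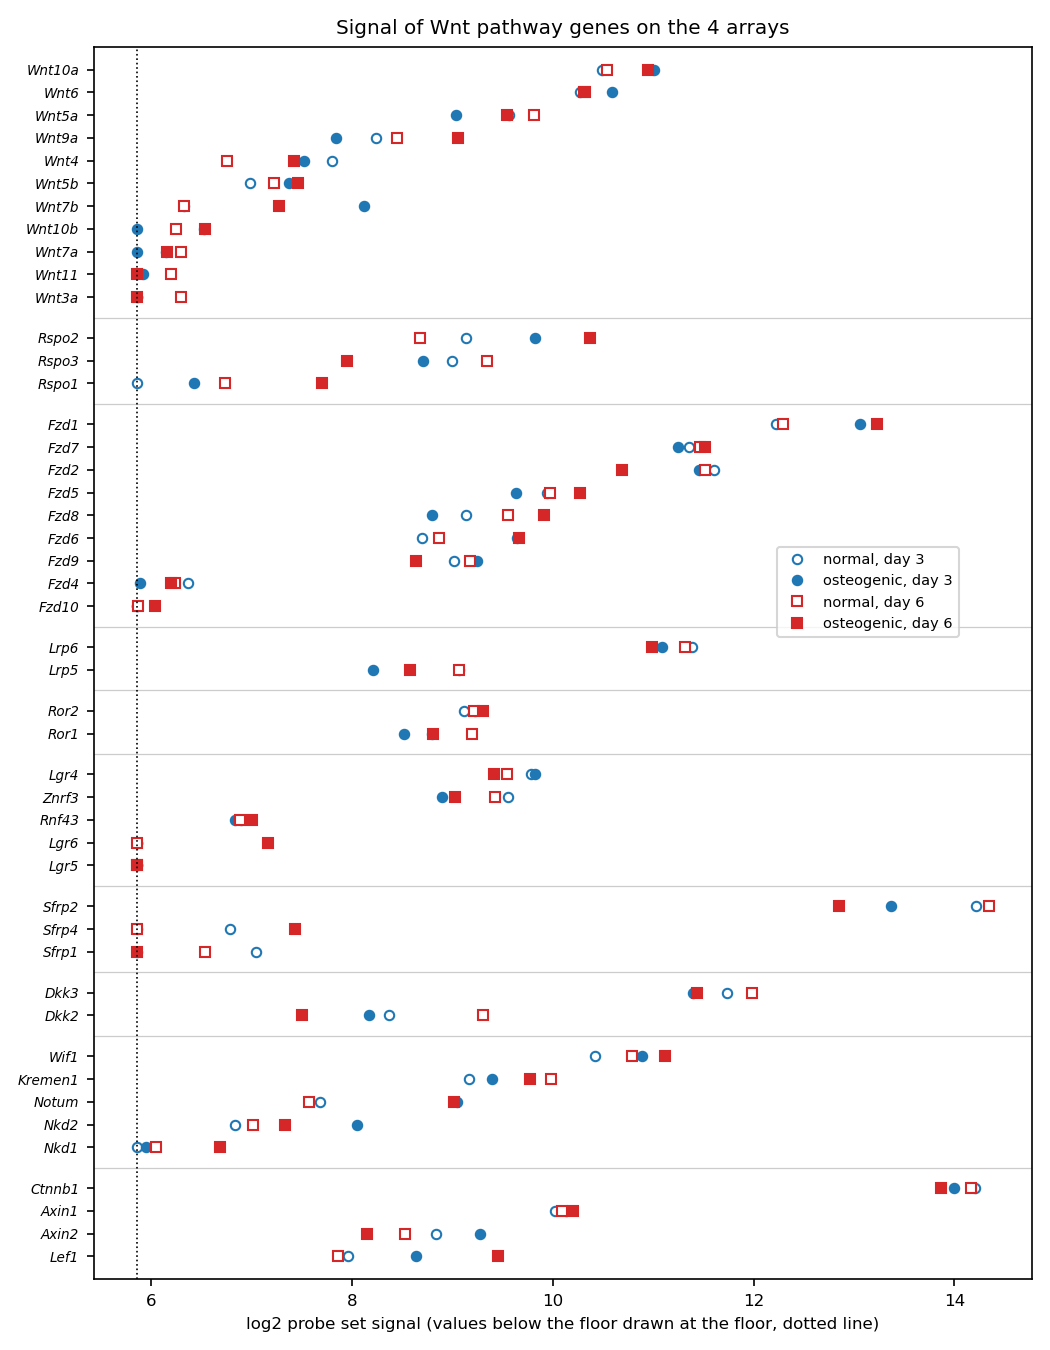
Log2 signal of the 46 Wnt pathway genes above the floor on at least 1 array, 1 point per array, grouped by role from ligands (top) to the beta-catenin core (bottom). Open symbols are normal and filled symbols osteogenic medium, blue circles are day 3 and red squares day 6, and the dotted line is the floor at a signal of 57.8. In Fzd1 and Notum both filled symbols lie to the right of both open ones, and in Sfrp2 and Lrp5 to the left.

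R-spondins are secreted proteins that bind Lgr receptors and the ubiquitin ligases Znrf3 and Rnf43, and so keep Frizzled receptors on the cell surface. Rspo2 and Rspo3 differed between media in opposite directions. Rspo2 signals were 564 and 908 in normal and osteogenic medium at day 3, and 408 and 1327 at day 6. Rspo2 was 1.61-fold and 3.25-fold higher in osteogenic medium, with both osteogenic values above both normal ones. A second Rspo2 probe set, with signals of 13.4 to 83.7, gave -0.17 and -0.36, the latter a bound from the floor. Rspo3 signals were 510 and 417 at day 3 and 648 and 248 at day 6. Rspo3 was 1.22-fold and 2.61-fold lower in osteogenic medium, and its osteogenic day 6 array had the lowest of the 4 values. Rspo1 was higher in osteogenic medium at both days, with signals of 53.0 (below the floor) and 85.7 at day 3 and 106 and 209 at day 6, the last a difference of 0.97.

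Of the R-spondin receptors, Lgr4 had signals of 880 and 904 at day 3 and 744 and 681 at day 6, differences of 0.04 and -0.13. Lgr6 was below the floor on 3 arrays, with signals of 9.16, 9.87 and 44.8, and had 143.7 in osteogenic medium at day 6, at least 2.48-fold higher than in normal medium. Its second probe set was below the floor on all 4 arrays, so the difference rests on 1 probe set on 1 array. Lgr5 was above the floor only in normal medium at day 3, with a signal of 58.0. Znrf3, the ligase that removes Frizzleds, had signals of 754 and 476 at day 3 and 686.4 and 522 at day 6, and was lower in osteogenic medium on both days, by 0.66 and 0.40 on the log2 scale. Rnf43, its relative, differed by -0.05 and 0.12.

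Among the Frizzled receptors, none of 8 measured at day 3 and of 9 at day 6 passed 2-fold, but Fzd1 and Fzd6 came close at both days. Fzd1 signals were 4764 and 8555 in normal and osteogenic medium at day 3 and 5032 and 9626 at day 6. The normal arrays differed by 0.08 on the log2 scale, while osteogenic medium was 1.80-fold and 1.91-fold higher. Its second probe set gave 0.89 at day 3 and 1.11 at day 6. Fzd6 signals were 414 and 799 at day 3 and 467 and 809 at day 6, 1.93-fold and 1.73-fold higher, but its next probe set gave 0.51 at day 3 and -0.43 at day 6.

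Fzd2 was lower at day 6 in all 3 of its probe sets, with signals of 2936 and 1655 in the brightest and log2 differences of -0.83, -0.53 and -0.58, after differences from -0.16 to -0.08 at day 3. Fzd7 signals were 2613 and 2423 at day 3 and 2827 and 2931 at day 6, which is within the probe error at both days, while a dimmer probe set gave -0.34 and -0.39, both bounds from the floor. Fzd5 and Fzd8 lay below normal medium at day 3 (-0.31 and -0.34) and above it at day 6 (0.30 and 0.36), and a second Fzd8 probe set gave -0.05 and 1.14. Fzd9 had the opposite signs (0.23 and -0.54). Fzd4 (-0.48 and -0.04) and Fzd10 (0.17 at day 6) had signals close to the floor.

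Both co-receptors lay below their normal medium level at both days, but by less than 2-fold. Over all genes measured, 5814 of 11861 lay below zero at day 3 and 5805 of 11901 at day 6. Lrp5, whose loss in people lowers bone mass, had signals of 537 and 296 at day 3 and 535 and 382 at day 6. Both osteogenic values were below both normal ones, and the difference was 1.81-fold and then 1.40-fold. Lrp5 has 1 probe set. Lrp6 signals were 2680 and 2172 at day 3 and 2542 and 2030 at day 6, differences of -0.30 and -0.32. Its second probe set gave -0.47 and -0.38. The alternative receptor Ror2, through which Wnt5a signals, differed by 0.11 and 0.09, with signals of 556, 600, 593 and 631 over the 4 arrays in the order normal and osteogenic at day 3, then day 6. Ror1 signals were 446 and 367 at day 3 and 585 and 447 at day 6, differences of -0.28 and -0.39.

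Secreted Frizzled-related proteins bind Wnts outside the cell and, for the most part, keep them from their receptors. Sfrp2 was lower in osteogenic medium at both days, and more so at day 6. Its signals were 18961 and 10566 in normal and osteogenic medium at day 3 and 20843 and 7403 at day 6. The normal medium arrays differed by 0.14 on the log2 scale, and osteogenic medium was 1.79-fold lower at day 3 and 2.82-fold lower at day 6. The array has 1 probe set for Sfrp2 under this name, so no second probe set bears on the value.

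Sfrp4, whose loss causes a disorder of thin cortical bone, lay on opposite sides of its normal medium level at the 2 days. Its signals were 110.5 and 50.2 at day 3 and 49.1 and 173.3 at day 6. It was thus at least 1.91-fold lower in osteogenic medium at day 3 and at least 3.00-fold higher there at day 6. On 2 of the 4 arrays it was below the floor, and it has 1 probe set. Sfrp1 signals were 132.0 and 58.2 at day 3, 2.27-fold lower in osteogenic medium, and 93.0 and 47.6 at day 6, at least 1.61-fold lower. These come from a probe set whose _x_at suffix marks probes that may bind other transcripts, and the next of its 5 probe sets gave 0.32 and 0.43, the latter a bound from the floor. The direction for Sfrp1 is therefore unsettled.

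Dickkopf proteins such as Dkk1 bind Lrp5 and Lrp6 and block the canonical branch, while Dkk3 is a divergent member. Dkk2 stood apart between media at day 6. Its signals were 330 and 287 at day 3 and 631 and 181 at day 6, a log2 difference of -0.20 and then of -1.80, or 3.48-fold lower. The day 6 gap had 2 sides: the normal medium value was the highest of the 4 arrays and the osteogenic value the lowest. Dkk3 signals were 3402 and 2699 at day 3 and 4050 and 2766 at day 6, 1.26-fold and 1.46-fold lower. Its second probe set gave -0.26 and -0.69. Both measured Dickkopf genes lay below zero at both days, beside 5814 of 11861 genes at day 3 and 5805 of 11901 at day 6. Dkk2, which has 1 probe set, was within the probe error at day 3.

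Of the 5 other inhibitors measured, 2 were higher by 2-fold or more in osteogenic medium at day 3 and 1 at day 6. By their brightest probe sets, all 5 lay above zero at day 3 and 4 at day 6, beside 51.0% and 51.2% of all genes. Other probe sets of Kremen1 (-0.02) and Nkd1 (-0.07, a bound from the floor) lay below zero at day 3. Notum, an enzyme that strips the lipid from Wnt proteins and is itself a target of the pathway, had signals of 205 and 527 at day 3 and 190 and 517 at day 6. It was 2.58-fold and 2.72-fold higher in osteogenic medium, while day 6 differed from day 3 by -0.11 on the log2 scale in normal and -0.03 in osteogenic medium. Nkd2, which binds Dishevelled and dampens signalling, had signals of 114 and 265 at day 3 and 129 and 161 at day 6. It was 2.32-fold higher at day 3 and 1.25-fold at day 6. All 4 Nkd2 probe sets lay above zero at both days, with a range of 0.62 to 1.22 at day 3 and of 0.22 to at least 0.82 at day 6, where the top value is from the floor.

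Wif1, a secreted protein that binds Wnts, had signals of 1368 and 1896 at day 3 and 1765 and 2220 at day 6, 1.39-fold and 1.26-fold higher. Kremen1, a receptor that works with Dickkopf proteins to remove Lrp6, had signals of 573 and 672 at day 3 and 1008 and 873 at day 6. Its differences of 0.23 and -0.21 were within the probe error. A second Kremen1 probe set gave -0.02 and -0.34, the latter past that error. Nkd1 differed by at least 0.10 and by 0.64. Its next probe set had signals of 118 in normal medium and 43.1, below the floor, in osteogenic medium at day 6, a bound of -1.03.

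**Figure D3:**
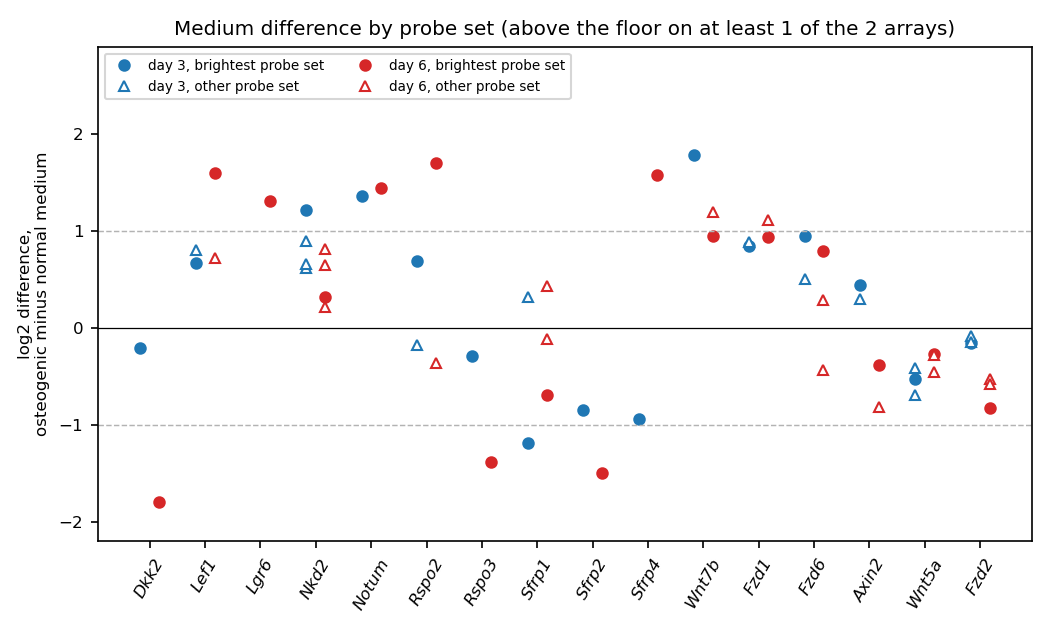
Log2 difference between osteogenic and normal medium for every probe set above the floor on at least 1 of the 2 arrays (y axis), for the 11 genes past 2-fold at either day and for Fzd1, Fzd6, Axin2, Wnt5a and Fzd2 (x axis). Blue is day 3 and red day 6, circles are the probe set that stands for the gene and triangles its other probe sets, and dashed lines mark 2-fold; differences from the floor are drawn at their bound. The probe sets of Nkd2, Fzd1 and Fzd2 lie on 1 side of zero, while those of Rspo2 and Sfrp1 fall on both.

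In the intracellular core, Lef1 was higher in osteogenic medium while Ctnnb1 was slightly lower. Lef1, a DNA-binding partner of beta-catenin, had signals of 249 and 397 at day 3 and 232 and 701 at day 6. It was 1.59-fold higher at day 3 and 3.02-fold at day 6, with both osteogenic values above both normal ones. Its second probe set, with signals of 88.7 to 155, gave 0.81 at day 3 and 0.72 at day 6, the same direction at both days but under 2-fold.

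Ctnnb1, which encodes beta-catenin, had signals of 18873 and 16288 at day 3 and 18376 and 14899 at day 6. Its differences of -0.21 and -0.30 had the same sign in all 3 probe sets, which ranged from -0.21 to -0.14 at day 3 and from -0.54 to -0.30 at day 6. The measurement is of mRNA and not of beta-catenin protein, whose stability the pathway controls.

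Axin2, a scaffold of the destruction complex and the most widely used target gene of the canonical branch, was below its normal medium level at day 6, where Lef1 and Notum were above theirs. Its signals were 456 and 621 at day 3 and 370 and 284 at day 6. Axin2 was 1.36-fold higher in osteogenic medium at day 3 and 1.30-fold lower at day 6, and its second probe set gave 0.30 and -0.81, both bounds from the floor. Axin1, its constitutive relative, had signals of 1039 and 1118 at day 3 and 1088 and 1177 at day 6, 1.08-fold higher on both days. The second Axin1 probe set, above the floor on all 4 arrays, went the other way, with -0.13 and -0.59 on the log2 scale.

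Between days in normal medium, 1 of 45 measured genes passed 2-fold, against 1.48% of all genes (0.741% in either direction). It was Wnt4, lower at day 6, with signals of 223 at day 3 and 108 at day 6. In osteogenic medium 6 of 44 passed 2-fold, against 6.32% of all genes (3.70% higher and 2.62% lower). Higher at day 6 were Sfrp4 and Lgr6, both from the floor, Rspo1 (1.28 on the log2 scale), Wnt9a (1.21) and Fzd8 (1.12), and lower was Axin2 (-1.13). The medium comparisons share these arrays, so these differences are not separate evidence. Of 42 genes measured at both days, 4 had signed medium differences that stood 2-fold or more apart between the days. The day 6 difference minus the day 3 difference was positive for Sfrp4 (at least 2.52, from the floor) and Rspo2 (1.01), and negative for Dkk2 (-1.60) and Rspo3 (-1.09), which were further below normal medium at day 6. Over all genes 4.54% had such a positive and 3.23% such a negative value, 7.77% in all.

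All 4 arrays were also fitted together, with limma's moderated test of an additive model of medium and day, which leaves 1 residual degree of freedom. Of 11259 genes fitted, 0 passed an adjusted p of 0.05 (0.00%), and 1661 had an unadjusted p under 0.05 (14.8%). Of the 42 Wnt genes fitted, 0 passed the adjusted and 13 the unadjusted threshold. With each gene's own variance, 0 genes passed the adjusted and 848 (7.53%), 4 of them Wnt genes, the unadjusted threshold. The lowest limma-adjusted p among the Wnt genes was that of Notum, 0.166, for a medium coefficient of 1.41 (SE 0.18) and a higher value in osteogenic medium at 2 of 2 days. Wnt7b (1.37), Sfrp2 (-1.17) and Fzd1 (0.89) followed, with limma-adjusted p of 0.216, 0.217 and 0.217. No Wnt gene is thus called for the medium by this test.

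A further list of 103 pathway genes on the array covered Wnt secretion, the cytoplasmic core, nuclear partners, other modulators, planar cell polarity and more target genes. At day 3, 3 of 87 measured were higher (3.45%, against 1.99% of all genes) and 2 lower (2.30%, against 1.59%). At day 6, 10 of 88 were higher (11.4%, against 4.18%) and 4 lower (4.55%, against 2.78%). Their medians were -0.13 and -0.045. No gene of the 16 measured in the cytoplasmic core, of the 19 nuclear partners or of the 2 Wnt secretion genes passed 2-fold at either day, beside 3.57% and 6.96% of all genes. The genes past it were modulators, polarity genes or targets.

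Among these modulators Sostdc1, a secreted antagonist of BMPs and of Lrp5 and Lrp6, had signals of 98.4 and 564 at day 3 and 157 and 984 at day 6, 5.73-fold and 6.25-fold higher. Cthrc1, a secreted protein that assists Wnt binding in the polarity branch, had signals of 996 and 2950 and then of 991 and 3067, 2.96-fold and 3.09-fold higher. Both had their osteogenic values above their normal ones on both days. Trabd2b, a membrane protease that cleaves Wnts, had signals of 238 and 159 at day 3 and 172 and 61.1 at day 6, log2 differences of -0.58 and -1.49.

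Of the polarity genes Daam1, a formin that links Dishevelled to the actin cytoskeleton, was lower at both days, with signals of 1241 and 481 at day 3 and 1110 and 468 at day 6, 2.58-fold and 2.37-fold. Among the target genes Tnfrsf11b, the decoy receptor that holds back osteoclasts, was 5.36-fold and 4.57-fold higher, and the transcription factor gene Tbx3 2.32-fold and 2.84-fold lower. Under 2-fold at day 3 and past it at day 6 were Ptgs2 (0.80 and 2.65 on the log2 scale), Vegfa (-0.03 and 1.56), Fosl1 (-0.31 and at least 2.78, from the floor) and Fgf18 (-0.95 and -1.18), and the difference between days was not tested. The remaining 4 genes past 2-fold at day 6, named after their values were seen, were Id2 (1.52 on the log2 scale), Ccn2 (1.41), Tpbg (1.25) and Lrp4 (1.03). The nuclear factors Tcf7l1 (-0.51 and -0.73) and Tcf7l2 (-0.56 and -0.70), which belong to the same family as Lef1, lay on the other side of zero from it at both days.

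**Figure D4:**
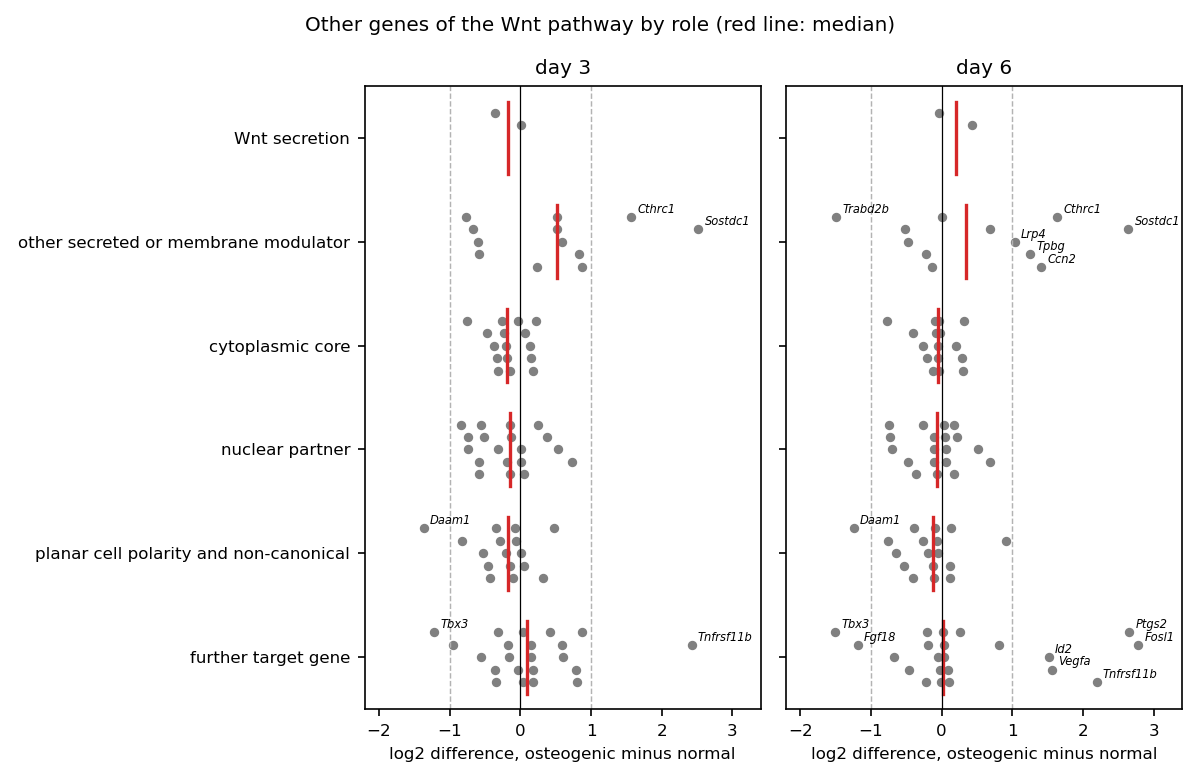
Log2 difference between osteogenic and normal medium (x axis) at day 3 (left) and day 6 (right) for the further pathway genes measured, 1 point per gene, grouped by role (y axis, points spread within a role for legibility). Red lines are the medians of each role, dashed lines mark 2-fold, and genes past it are named. The 16 measured genes of the cytoplasmic core lie within 2-fold on both days.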

How the data were processed

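Per the labels' protocols, 500 ng of total RNA per culture was turned into biotin-labelled cRNA, which was hybridised to the arrays. The authors deposited 1 linear intensity per probe set and array. Each array's deposited mean was 500 after 2% of probe sets were trimmed at either end, so arrays had been scaled to each other, which removes differences in total RNA per cell. The software is not given in the sources used here. Depth does not apply to arrays, whose number limits the precision.

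Of 45101 probe sets, 34945 had 1 gene symbol in GEO's annotation, 932 several and 9160 none, beside 64 controls. All 59 symbols are the same in RefSeq's table of GRCm38.p6. Arrays were brought to the same 75th percentile by factors of 0.988 to 1.02, floored at the pooled 50th percentile and put on the log2 scale. The additive fit used limma 3.58.1 with Benjamini-Hochberg adjustment over all genes fitted. A medium difference that varies with the day enters its residual. The steps were tested on simulated arrays, with noise drawn from the normal medium arrays. Changes were planted only in genes well above the floor, so that test does not cover changes in genes near it.

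The genes and lists were chosen with earlier results of these data known. Genes given with all 4 values were those past 2-fold between media, the 2 with the highest signals in each role, and others where a comparison turned on them, chosen after their values were seen. Also given were 7 core genes, except Tcf7, which has no probe set. From the further list, those past 2-fold were named, up to 6 in each direction and day. Outside this rule, Tcf7l1 and Tcf7l2, under 2-fold at both days, were also named. The alternatives were 3 scalings, 3 floors, a pseudocount of 50, neither floor nor filter, a stricter filter, averaged probe sets and the second brightest probe set.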

Additional observations from a re-analysis of the deposited data

Results flagged for a closer look

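Several Wnt genes differed between media in opposite directions at the 2 days, each time by more than the probe error of 1 standard deviation. Some passed it only narrowly, such as Fzd5 with -0.31 and 0.30. With 1 array per group the difference between days was not tested. The share of all genes with such opposite differences is not given here. Of the Wnt genes measured at both days 69.0% had the same sign at both, beside 62.7% of all genes. The change, day 6 difference minus day 3 difference on the log2 scale, was 2.52 for Sfrp4, which was at the floor on 1 array of each day, so both differences are bounds. It was 0.9994 for Wnt9a, at least 0.96 for Wnt10b (below the floor in osteogenic medium at day 3), 0.95 for Wnt4, 0.70 for Fzd8 and 0.60 for Fzd5, all lower in osteogenic medium at day 3 and higher at day 6. A second probe set of Fzd8 gave -0.05 and 1.14. The second probe set of Fzd5 gave -0.13 and -0.02 and did not share this pattern. Axin2 went the other way, with a change of -0.83, and both its probe sets were above zero at day 3 and below it at day 6. The day 6 differences all rest on the array with the low 18S ribosomal control.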

How the results depend on the processing

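Each result was recomputed under 11 alternatives. The scalings moved no count of Wnt genes by more than 1.5 times, while the floor and the choice of probe set did. With the floor at the 40th percentile, 3 genes were lower at day 3, 5 were lower at day 6 and 4 passed 2-fold between days in normal medium. At the 60th percentile 0 were lower at day 3, 3 were higher at day 6, and 0 and 3 passed 2-fold between days in normal and osteogenic medium. At the 80th percentile 0 were higher and 0 lower at day 3, 0 were higher and 1 was lower at day 6, 0 passed 2-fold between days in either medium, and the limma fit called 13 genes for the medium, 0 of them Wnt genes. With a pseudocount of 50, 0 were lower at day 3. With neither floor nor filter 6 were higher and 8 lower at day 3, 9 were lower at day 6, and 13 and 18 passed 2-fold between days. With the stricter filter 3 were higher at day 6. With averaged probe sets 1 was higher and 0 lower at day 3, and 0 and 2 passed 2-fold between days. With the second brightest probe set 1 was higher and 0 lower at day 3, 2 passed 2-fold between days in normal medium, and the day 6 median became -0.081. That setting also turned Rspo2 at day 6 to -0.36, a bound from the floor, and Sfrp1 at day 3 to 0.32; the cause was not tested.

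Of 12 member differences past 2-fold, 9 kept their sign in every alternative that gave a value and 4 stayed past 2-fold in all of them, those of Notum at both days and of Sfrp2 and Dkk2 at day 6. Notum, Sfrp2 and Dkk2 have 1 probe set each. Averaging probe sets or taking the second brightest therefore could not change their values. The exceptions in sign were Rspo2 and Sfrp1, above, and Lef1 at day 6, whose difference was 0.00 at the 80th percentile. Over all genes, the counts past 2-fold were 424 at day 3 and 828 at day 6, against 752 and 1168 when the 40th percentile was the floor, 227 and 592 at the 60th, 53 and 221 at the 80th, 257 and 564 with averaged probe sets and 4478 and 4782 with neither floor nor filter. Between days they were 174 in normal and 755 in osteogenic medium, against 436 and 1099, 59 and 541, 14 and 171, 97 and 509, and 4096 and 4723 in the same order of settings. The additive fit has the day as a term and so already compares the media within days. No replicate could be left out, since each group has 1 array.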
